A study of Mus musculus with 5 samples.

Results

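Egr1, Ier2, Myc, Btg2, Klf6, Zfp36, Dusp1 and Nfkbia are genes that cells switch on quickly after a stimulus, or that feed back on the signals that did so. Here they are described by where peaks of RNA polymerase II (RNAPII), of R-loops and of NELF-A and NELF-B, both subunits of the negative elongation factor, were found in primary mouse mammary epithelial cells. The 8 genes were chosen by name, with earlier results of these data known. A peak belonged to a locus when it overlapped a fixed window of 12000 to 20000 bp around the gene in the mm9 genome, and 64 of the 32456 deposited peaks did so: 9 of 7718 for RNAPII, 27 of 10782 for NELF-A, 13 of 3925 for NELF-B and 15 of 10031 for DRIP-seq, the assay for R-loops.

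All libraries came from the same kind of cells: epithelial cells freed by enzymes from the mammary glands of virgin mice aged 6 to 8 weeks, of a strain given as mixed. The RNAPII and DRIP titles each name 2 libraries, with 1 list for both together, and the NELF antibodies were made in house. DRIP-seq after treatment with RNase H was not analysed here, so no R-loop peak below was checked against it. Each target had a single list, so replicate error could not be estimated and no p-value is given. The lists name no genes, so the cell type was not checked against marker genes, and sequencing depth is unknown from these files.

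Immediate early genes are induced without new protein synthesis, and many of them are known to carry polymerase that has started and then paused shortly after the start site. NELF is the complex that helps hold it there, and its release lets the polymerase move into the gene. R-loops, in which new RNA pairs with its DNA template, form behind transcribing polymerase. Egr1, Myc and Klf6 encode transcription factors, and Ier2 encodes a nuclear protein of the immediate early class. Btg2 restrains cell division. Dusp1, Zfp36 and Nfkbia are feedback genes: they encode a phosphatase that switches off MAP kinases, a protein that speeds decay of inflammatory and growth factor mRNAs, and the inhibitor that keeps NF-kB in the cytoplasm.

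The promoters of Dusp1, Btg2, Zfp36 and Nfkbia are shown because each holds a match to a binding motif of a stimulus-responsive factor. They are the 250 bases before the RefSeq start in GRCm38.p6, read along the gene, which is on the minus strand for all of them. RefSeq promoters were also matched for Klf6 (plus strand) and not for Egr1, Ier2 and Myc. Capitals mark the motif: the cAMP response element TGACGTCA in Dusp1 and Btg2, a CArG box (the serum response factor's motif) in Zfp36, and an NF-kB site in Nfkbia.
Dusp1: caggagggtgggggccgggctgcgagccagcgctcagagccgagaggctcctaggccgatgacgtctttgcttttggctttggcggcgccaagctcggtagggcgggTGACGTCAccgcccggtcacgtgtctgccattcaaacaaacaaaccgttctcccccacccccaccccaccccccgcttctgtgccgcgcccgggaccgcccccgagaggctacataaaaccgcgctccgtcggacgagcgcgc
Btg2: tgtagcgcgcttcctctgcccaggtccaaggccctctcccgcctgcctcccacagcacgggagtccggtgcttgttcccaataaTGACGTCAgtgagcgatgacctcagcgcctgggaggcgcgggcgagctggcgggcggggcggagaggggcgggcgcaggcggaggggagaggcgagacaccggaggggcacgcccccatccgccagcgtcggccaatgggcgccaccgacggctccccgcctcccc
Zfp36: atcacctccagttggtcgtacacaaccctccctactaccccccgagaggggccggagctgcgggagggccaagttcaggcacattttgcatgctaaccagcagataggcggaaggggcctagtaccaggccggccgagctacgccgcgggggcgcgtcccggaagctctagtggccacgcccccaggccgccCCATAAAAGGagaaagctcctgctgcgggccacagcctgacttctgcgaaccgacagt
Nfkbia: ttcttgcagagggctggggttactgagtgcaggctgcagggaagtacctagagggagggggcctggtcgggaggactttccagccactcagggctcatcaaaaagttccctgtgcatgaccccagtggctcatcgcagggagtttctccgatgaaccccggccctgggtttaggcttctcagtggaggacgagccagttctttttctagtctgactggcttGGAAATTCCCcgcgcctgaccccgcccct

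Both strands were searched over 300 bases, which reach 50 bases past the start. TGACGTCA was found in 2 of the 5 matched genes and in 1.79% of all 32841 promoters in the table. The CArG box was found in 1 of 5 and in 1.63% of promoters, and the NF-kB site in 1 of 5 and in 4.51%. The GC box GGGCGG was present in all 5 and in 35.7% of promoters. TATAAA was present in Nfkbia and in 13.6% of promoters, and the AP-1 motif TGANTCA in none of the 5 and in 7.81%. The TATAAA match of Nfkbia did not lie within the bases printed above. The capitals overlap a match to another motif of this search only in Zfp36. There the first base of the CArG box is also the last base of the gene's only GC box, which reads CCGCCC on the printed strand. GC content ran from 61% (Nfkbia) to 72% (Btg2), with a median of 52.7% over all promoters, and CpG counts from 15 (Nfkbia) to 32 (Btg2), with a median of 7. A match is a string of letters and not a measured site. Since the peaks are in mm9, these sequences were not placed within them.

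All 8 loci held peaks of all 4 targets. Peaks of all lists, joined wherever they overlapped or touched, formed 19136 regions, of which 37.7% held RNAPII, 53.8% NELF-A, 19.6% NELF-B and 45.7% DRIP, and 4.99% held all 4. Each locus lay in a long RNAPII domain, a single peak at 7 loci and a pair of touching peaks at Ier2. Among all 419 domains of 5 kb or more, which include these 8, 77.6% held NELF-A, 59.9% NELF-B and 76.6% DRIP, and 53.2% held all 3. The 8 domains were 8.75 to 20.25 kb wide, against a median of 7.75 kb for the 419.

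**Figure D1:**
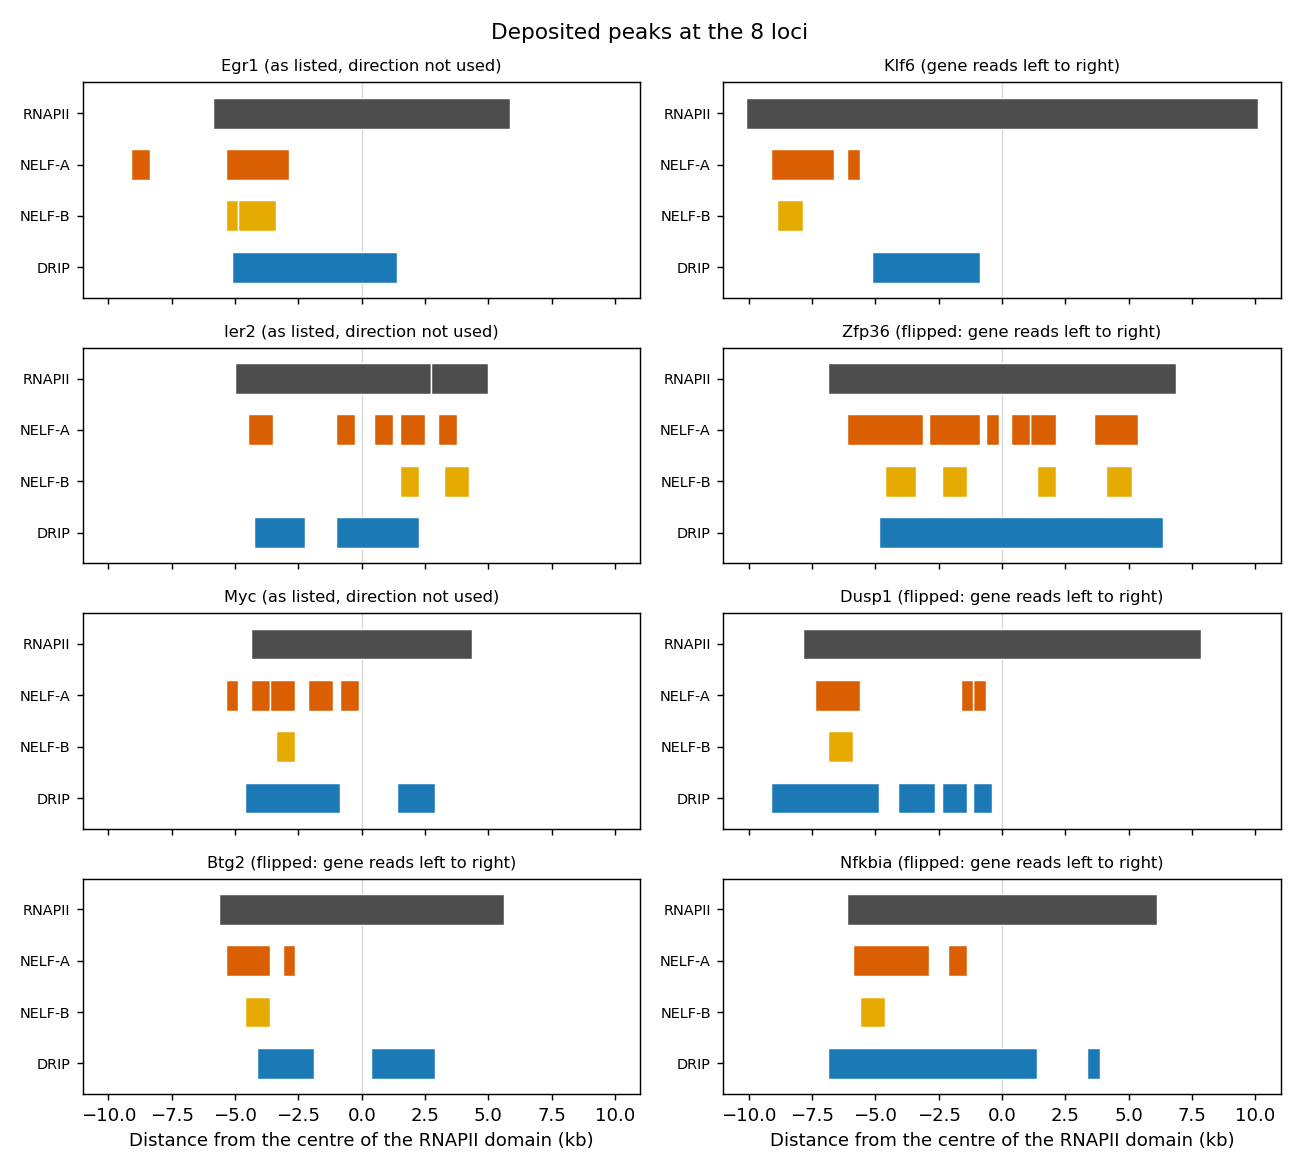
Peaks of RNAPII, NELF-A, NELF-B and DRIP at each locus, as bars along the distance in kb from the centre of the RNAPII domain; loci on the minus strand are flipped so that transcription runs from left to right, and Egr1, Ier2 and Myc are drawn as listed. The highest NELF-A peak lies in the outer 25% of the RNAPII domain at 7 loci (all except Ier2), and at Zfp36 further NELF-A peaks bring its cover to 65.5% of the domain.

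The score is the authors' own whole number per peak, of no stated unit, and wide peaks score high (Spearman's rho of score with width across a list ran from 0.870 in the NELF-B list to 0.977 in the RNAPII list). It is compared only within a list, as a rank with 1 the highest or as the score itself. RNAPII ranked in the top 5% of its list at all 8 loci, a class that holds 4.99% of the list by construction. DRIP ranked in the top 10% at all 8 (10.1% of the list), and NELF-A (10.2%) and NELF-B (11.1%) at 7 each. Myc was the locus outside for both NELF subunits. With touching peaks joined, its NELF-A moved from 18.9% to 9.93% of the list and so inside the top 10%, while its NELF-B stayed outside, at 46.7%. In the top 1% were RNAPII at 6 loci (0.998% of the list), NELF-A at 5 (1.01%), DRIP at 3 (0.997%) and NELF-B at 0 (1.04%). Ranked by score per base, the best peak per locus lay at 0.09% to 1.74% of the list for RNAPII, 0.58% to 10.9% for NELF-A, 1.40% to 90.1% for NELF-B and 0.32% to 5.76% for DRIP. Myc had the last place in each of the 4 ranges. Long domains as a class also rank high: 48.7% of the 419 held a NELF-A peak in the top 10%, 29.8% such a NELF-B peak and 48.4% such a DRIP peak. Their share with RNAPII in the top 5% was not computed. Score follows width most closely in the RNAPII list, so a high RNAPII rank is to be read with the width of these domains.

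**Figure D2:**
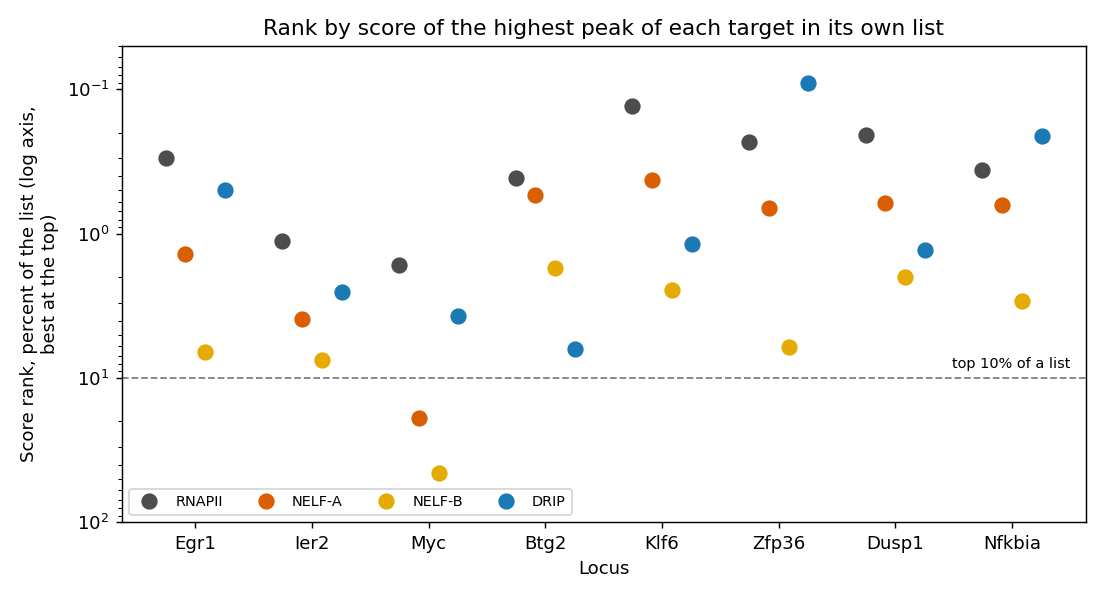
Rank by score of the highest peak of each target at each locus, as a percent of its own list, on a log axis with the best rank at the top and a dashed line at 10%. Myc is the locus whose NELF-A (18.9%) and NELF-B (45.9%) points lie below the line, on peaks as listed; with touching peaks joined its NELF-A is at 9.93%.

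Of the transcription factor genes, Klf6 had the highest-ranked RNAPII and NELF-A peaks of the 8 loci by score. Ranked by score per base, Klf6 held neither first place, with RNAPII at 0.26% of its list and NELF-A at 2.24%. Its RNAPII peak, on chromosome 13 from 5858751 to 5879000, was 20250 bp wide with a score of 19016 and ranked 10. It ran 4 kb past the window, which ends at 5.875 Mb. The main NELF-A peak, from 5859751 to 5862250, scored 172 and ranked 46, and a second one of 500 bp scored 9, the floor of the NELF-A list. NELF-B lay inside the main NELF-A peak, from 5860001 to 5861000, with a score of 34 and rank 96. The only DRIP peak, from 5863751 to 5868000, scored 845 and ranked 119. It began 1500 bp beyond the main NELF-A peak, and Klf6 was the only locus where no DRIP peak overlapped the highest NELF-A peak.

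At Egr1, a zinc finger factor that relays growth signals, RNAPII covered chromosome 18 from 35018751 to 35030500 with a score of 13153 (rank 23). NELF-A from 35019251 to 35021750 scored 123 (rank 150). NELF-B was listed there as a pair of touching peaks, of which the higher scored 23 (rank 259) and had its centre at the same base as NELF-A. DRIP ran from 35019501 to 35026000 as a single peak of 6500 bp with a score of 1324 (rank 50). By score per base, RNAPII was at 0.10% of its list and DRIP at 1.10%, while NELF-A fell back from 1.39% to 8.73% and NELF-B from 6.60% to 49.0%. A small NELF-A peak with a score of 13, from 35015501 to 35016250, reached into the window and lay outside RNAPII.

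Myc, which drives growth and proliferation, had the lowest ranks of the 8 loci for RNAPII, NELF-A and NELF-B. RNAPII covered chromosome 15 from 61815751 to 61824500 with a score of 4937 (rank 127). NELF-A was spread over 5 peaks between 61814751 and 61820000, with scores of 11, 16, 46, 24 and 14 in order of position, and the highest of them ranked 2035 (18.9% of the list). The first of these lay outside RNAPII. The NELF-B peak, from 61816751 to 61817500, scored 10 and ranked 1801 (45.9%). DRIP stood higher in its list than NELF did in theirs. Its main peak, from 61815501 to 61819250, scored 451 (rank 375, or 3.74% of the list) and covered the highest NELF-A peak, and a second one lay inside the domain with a score of 142.

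Ier2 was the locus where the highest NELF-A peak lay furthest from an end of the RNAPII domain. The touching RNAPII peaks on chromosome 8, from 87179751 to 87187500 and on to 87189750, scored 6759 (rank 87) and 795 (rank 1101). NELF-A formed 5 peaks inside them, with scores of 20, 21, 30, 85 and 18 in order of position. The highest, from 87186251 to 87187250, ranked 424 by score, and its score per base was in the top 0.90% of the list. NELF-B overlapped that peak with a score of 22 (rank 296), and a second NELF-B peak scored 13. DRIP from 87183751 to 87187000 scored 565 (rank 254) and covered 3 of the 5 NELF-A peaks in whole or in part, and a DRIP peak with a score of 159 overlapped the lowest-lying one.

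Btg2 combined the highest-ranked NELF-B peak of the 8 loci with the lowest-ranked DRIP. RNAPII on chromosome 1, from 135965751 to 135977000, scored 11581 (rank 32). NELF-A from 135975001 to 135976750 scored 166 (rank 58) and NELF-B from 135975001 to 135976000 scored 40 (rank 68). A second NELF-A peak was at the lowest score of its list, 9. The higher DRIP peak, from 135968501 to 135971000, scored 305 (rank 634) and lay 4000 bp from the main NELF-A peak. The other, from 135973251 to 135975500, scored 190 and overlapped it.

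Among the feedback genes, Zfp36 had the broadest NELF and DRIP. RNAPII on chromosome 7, from 29155501 to 29169250, scored 15450 (rank 18). A single DRIP peak of 11250 bp, from 29156001 to 29167250, scored 3743 and ranked 9 in its list, the best rank of any target at these loci. NELF-A formed 6 peaks, and the highest were nearly level, with 153 (rank 72) from 29165501 to 29168500 and 150 (rank 75) from 29163251 to 29165250. The other NELF-A peaks scored 10 to 57. NELF-B formed 4 peaks, and here too the highest were close, with 24 (rank 241) and 23 (rank 259). The order was the opposite of NELF-A, since the score of 24 lay on the NELF-A peak with 150. In the order of protein-coding genes in GRCm38, Zfp36 lies between Plekhg2 and Med29, and peaks of the window were not assigned to one gene or another.

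At Dusp1, RNAPII on chromosome 17 from 26631251 to 26647000 scored 15543 (rank 16) and began below the window, which starts at 26.637 Mb. NELF-A from 26644751 to 26646500 scored 159 (rank 66), and NELF-B from 26645001 to 26646000 scored 38 (rank 78), inside it. A pair of touching NELF-A peaks further into the domain were both at 9. DRIP formed 4 peaks, more than at any other of these loci. Their scores rose toward NELF, with 63, 82, 196 and 799 in order of position, and the highest, from 26644001 to 26648250, ranked 130. It covered the main NELF-A peak and reached 1250 bp past the end of the RNAPII domain.

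By the plain sum of ranks over the 4 lists, Nfkbia stood first among these loci, at place 10 of the 955 regions that held all 4 targets. With each rank taken as a percent of its list, Dusp1 (place 18), Nfkbia (19) and Klf6 (20) stood side by side. RNAPII on chromosome 12, from 56582251 to 56594500, scored 12456 (rank 28). NELF-A from 56591251 to 56594250 scored 157 (rank 68), with a further peak of 13. NELF-B from 56593001 to 56594000 scored 32 (rank 115). DRIP from 56587001 to 56595250 scored 1964 (rank 21), covered the main NELF-A peak in full and reached 750 bp past the domain, and a second DRIP peak of 500 bp scored 43. In the order of plain rank sums, Klf6 took place 16, Dusp1 20, Zfp36 25, Egr1 31, Btg2 57, Ier2 86 and Myc 326.

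NELF-A and NELF-B overlapped at these loci, as they did at most long domains with both. The highest NELF-B peak lay wholly inside the highest NELF-A peak at 7 of 8, Zfp36 being the exception. This last count was not made for the long domains as a class. The highest NELF-A peak overlapped a NELF-B peak at all 8, against 76.0% of the 325 long domains with NELF-A and 98.0% of the 251 that also held NELF-B. The distance between the centres of both peaks was 0 bp at Egr1, 125 bp at Ier2, Myc and Dusp1, 375 bp at Btg2, 500 bp at Klf6, 750 bp at Nfkbia and 2750 bp at Zfp36. Their median was 250 bp, and that of the 251 long domains with both subunits was 125 bp, on lists with a 250 bp grid. All 13 NELF-B peaks of the windows overlapped NELF-A, where 92.5% of the whole NELF-B list does. Of the 27 NELF-A peaks, 25 overlapped RNAPII (54.1% of the whole list) and 12 overlapped NELF-B (32.9%), and 19 were side peaks of lower score than the highest at their locus. The overlap with RNAPII is largely set by the windows, most of whose length the RNAPII domains fill, so the whole list is not a like background. Domains with 2 or more NELF-A peaks made up 7 of these 8 and 32.9% of the 325. At Btg2, Klf6 and Dusp1 every further peak was at the lowest score of the list. All 8 domains were also wider than the median long domain, and this count was not adjusted for width.

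NELF lay toward the 5′ end of the RNAPII domain at the genes whose direction could be used. Gene starts were not placed, so how far this end lies from the start of the gene is not known here. At Btg2, Klf6, Zfp36, Dusp1 and Nfkbia the domain was read along the strand given by RefSeq, which the peak lists do not contain. The centre of the highest NELF-A peak lay nearer the 5′ end in 5 of 5, at 8.73% of the domain length for Dusp1, 10% for Btg2, 11.1% for Klf6, 14.3% for Nfkbia and 16.4% for Zfp36. In base pairs this was 1125 (Btg2) to 2250 (Klf6 and Zfp36) from the 5′ end, and the domains ran on for 10125 (Btg2) to 18000 bp (Klf6) beyond it. The highest NELF-B peak gave 8.17% (Nfkbia) to 13.3% (Btg2) at 4 of these genes and 36.4% at Zfp36. For the others, as listed, NELF-A lay at 14.9% of the domain at Egr1, 14.3% at Myc and 70.0% at Ier2. Within the outer 25% at either end, NELF-A was thus found at 7 of 8 loci, and at 91.1% of the 325 long domains with NELF-A, a share like that of the 8. The count of 5 of 5 at the 5′ end has no such share beside it. The long domains were not assigned to genes or strands, so it was not computed.

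**Figure D3:**
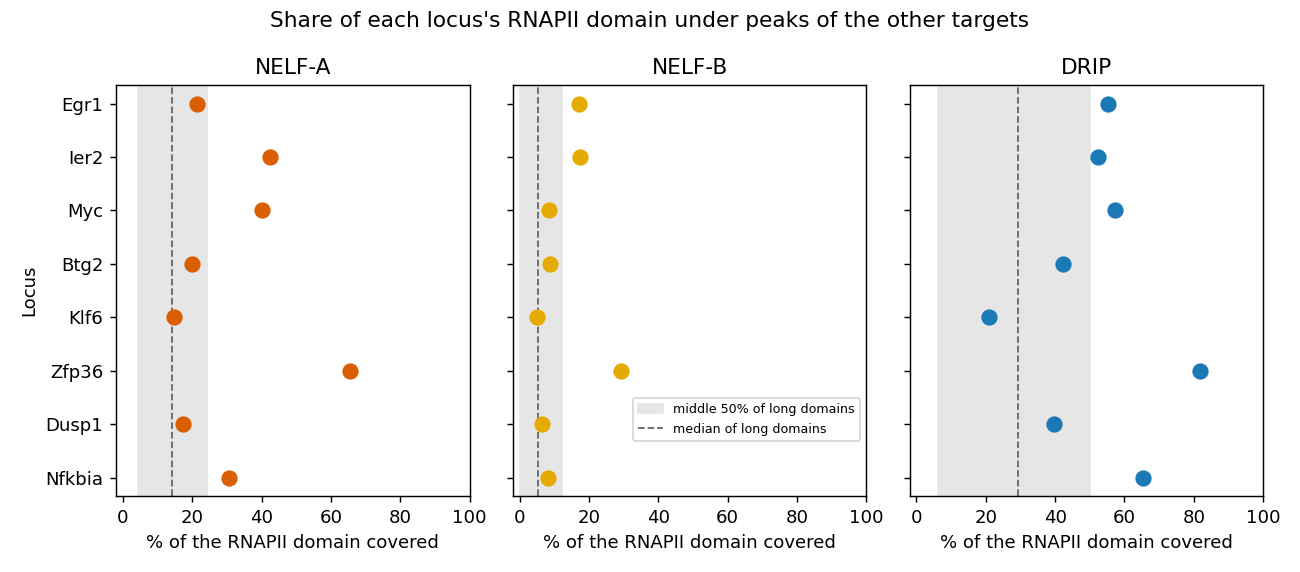
Percent of each locus's RNAPII domain that NELF-A, NELF-B and DRIP peaks cover, 1 point per locus, with the middle 50% (grey) and median (dashed) of the 419 long domains. Domains without a peak of the target are included as uncovered. Zfp36 has the highest point in each panel and Klf6 the lowest, and in the DRIP panel Klf6 is the point below the median.

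R-loop signal covered 21.0% of the RNAPII domain at Klf6, 39.7% at Dusp1, 42.2% at Btg2, 52.5% at Ier2, 55.3% at Egr1, 57.1% at Myc, 65.3% at Nfkbia and 81.8% at Zfp36. The median of the 419 long domains was 29.2%, and 7 of the 8 loci were above it. Klf6 and Dusp1, with the widest domains of the 8, had the lowest shares, and Zfp36 and Nfkbia, next in width, the highest. NELF-A covered 14.8% (Klf6) to 65.5% (Zfp36), against a median of 14.3%, and NELF-B covered 4.94% to 29.1% at the same genes, against 5.33%. These medians take domains without the target as uncovered, and 325 of the 419 held NELF-A, 251 NELF-B and 321 DRIP. By NELF-B cover, Zfp36, Ier2 and Egr1 took places 10, 53 and 56 of the 419. The other loci lay between places 154 (Btg2) and 218 (Klf6), in the lower part of the 251 domains with NELF-B. In total DRIP covered 4250 bp at Klf6 and 11250 bp at Zfp36, with the other 6 loci between 4750 and 8000 bp.

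DRIP was not always on the side of NELF. A DRIP peak overlapped the highest NELF-A peak at 7 of 8 loci and at 64.0% of the 325 long domains with NELF-A. With the domain cut at its midpoint, DRIP covered more of the side with the highest NELF-A peak at 5 loci and more of the other side at 3. Of the 253 long domains with NELF-A and unequal cover, 79.4% had more on the NELF-A side. Over whole domains, the lean to the NELF-A side was widest at Dusp1, with 79.4% of that side covered and 0% of the other. Next was Nfkbia, with 100% and 30.6%. The shares were 87.2% and 23.4% at Egr1, 80% and 34.3% at Myc, and 42.0% and 0% at Klf6. The exceptions were Zfp36, with 70.9% on the NELF-A side and 92.7% on the other, Ier2 with 45% and 60%, and Btg2 with 40% and 44.4%. The Btg2 difference was small and turned with the parts compared: in the first of 3 equal parts from the 5′ end DRIP covered 60%, and in the last 26.7%. All 15 DRIP peaks of the windows overlapped RNAPII, where 23.1% of the DRIP list does, 10 overlapped NELF-A, where 15.9% does, and 7 overlapped NELF-B, where 7.68% does. Of the 13 NELF-B peaks, 11 overlapped DRIP (20.1% of the whole list). An RNAPII domain fills most of each window, so a peak there would tend to overlap RNAPII wherever it lay. The whole lists are therefore not a like background for these counts. Shares for peaks within the long domains were not computed.

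**Figure D4:**
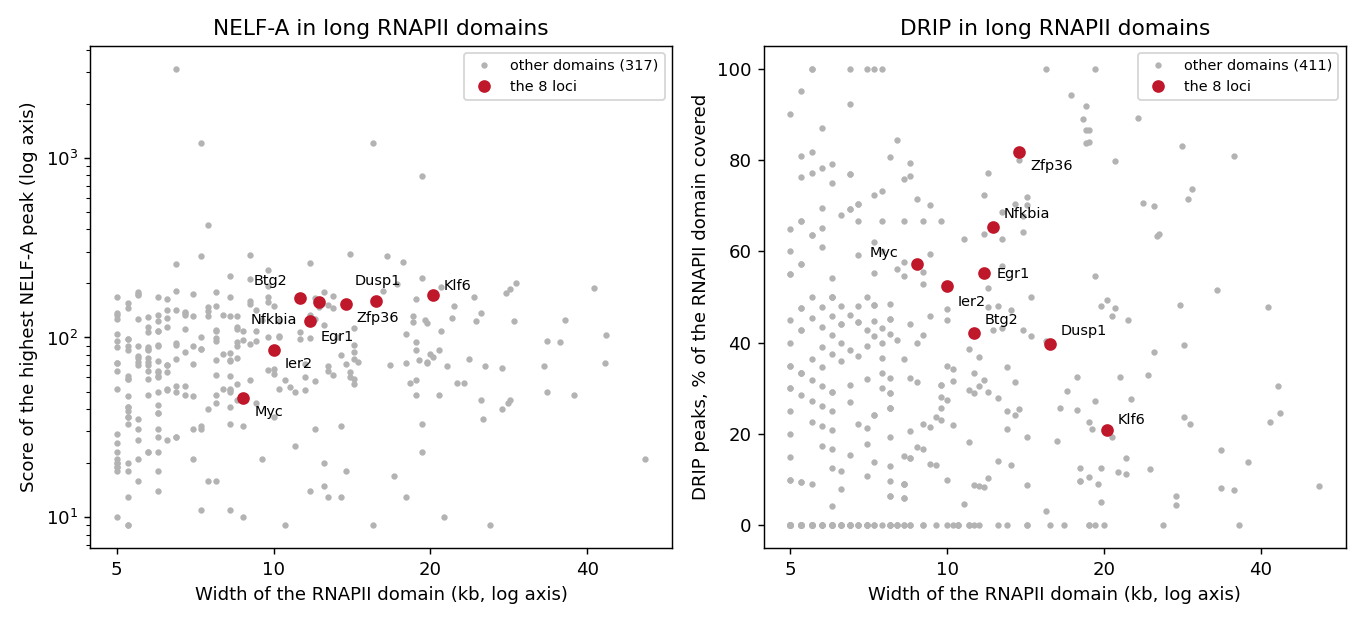
Long RNAPII domains by width in kb (log axis), with the score of the highest NELF-A peak (left, log axis, domains with NELF-A) and the percent of the domain covered by DRIP (right, all 419 domains); red points are the 8 loci and grey points the others. Myc has the lowest NELF-A score of the 8, at 46, and Klf6 the lowest DRIP cover.

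Set among the 419 long domains rather than whole lists, the loci stood high for RNAPII and were more mixed for the rest. By RNAPII score they took places 10 (Klf6), 17 (Dusp1), 19 (Zfp36), 26 (Egr1), 33 (Nfkbia), 38 (Btg2), 84 (Ier2) and 137 (Myc), although by width they held places 41 to 173. The highest NELF-A score per domain ranged from 46 (Myc) to 172 (Klf6), with a median of 155 for the 8 and 59 for the class, and Myc was the locus below the class median, at place 245. For NELF-B the scores were 10 (Myc) to 40 (Btg2), with medians of 28 and 10. For DRIP they were 305 (Btg2) to 3743 (Zfp36), with medians of 822 and 190, and all 8 were above the class median. The class medians count domains without the target as 0, and 325 of the 419 held NELF-A, 251 NELF-B and 321 DRIP. By DRIP score Btg2 took place 164, just below the middle of the 321 domains with DRIP. No test was made of these differences, since both sets come from the same single lists.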

How the data were processed

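RNAPII, NELF-A and NELF-B ChIP-seq and DRIP-seq libraries were made with 15 PCR cycles (RNAPII, DRIP) or 18 (NELF), per the labels' protocols. BWA was used and positions are in mm9, per the submitters' processing notes. Not given in the sources used here are the peak caller, its threshold, any input control and how paired libraries were combined. The deposited lists hold chromosome, first and last base on a 250 bp grid and 1 score per peak; the authors' score has no stated unit.

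The 8 genes, their windows and the gene lists were chosen with earlier results of these data known. Every peak overlapping a window by 1 bp or more was kept, and all 8 genes are named. Ranks are by score within a list, ties taking the best rank. RNAPII domains are touching peaks joined with scores summed; the highest per window was used. Strand and promoters are from RefSeq tables of GRCm38.p6, none of whose coordinates were used, so peaks were not placed in exons, introns or promoters. Python 3.11.15 and numpy 2.4.6 were used, and overlap, joining and ranks were tested on simulated data. Alternatives were wider windows, peaks centred in the window, joined peaks, the upper 50% by score, score per base and other domain definitions.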

Additional observations from a re-analysis of the deposited data

How the results depend on the processing

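The 45 counts of loci recomputed under an alternative were equal to the reported count in 42 cases and within 1.5 times of it in all 45. Part of this was fixed in advance. Each target was already present at 8 of 8 loci, and wider windows or joined peaks cannot take a locus away from such a count. The tally is therefore a weak measure of stability. With touching peaks joined, NELF-A was in the top 10% at 8 loci instead of 7, Myc included, and ranked by score per base NELF-B was in the top 10% at 6 instead of 7. With the domain cut in 3 equal parts, the first set against the last, 4 instead of 3 of the 5 oriented genes had more DRIP on the 5′ side. Single ranks moved more: of 128 recomputed, 101 stayed within the counting interval of the reported rank and 27 did not, 23 of them when ranked by score per base and 4 with touching peaks joined. That interval treats the rank as a binomial count out of the list length. It is a yardstick only and measures no spread between replicates. Widening the windows by 5000 bp or keeping peaks centred in the window left all the ranks equal, and these made up 64 of the 128. With all NELF-A peaks weighted by score, the mean position at Zfp36 moved from 16.4% to 38.6% of the domain. Leaving out a replicate was not possible with a single list per target. No paired analysis was possible because each target has 1 list and no test was made. Depth is unknown, so weak peaks missing from a list cannot be told from absent ones.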

Other observations

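Promoters of 17 of 21 other immediate early and feedback genes were in the same RefSeq table. The NF-kB site was found in 6 of them (Fos, Fosb, Fosl2, Ier3, Nr4a1 and Tnfaip3), against 4.51% of all promoters, and the GC box in 15, against 35.7%. TATAAA was found in 5 (Fos, Junb, Ccn1, Gadd45b and Tnfaip3), the CArG box in 2 (Egr2 and Dusp5), the AP-1 motif in 1 (Tnfaip3) and TGACGTCA in 0. The search covers 250 bases before the start and 50 after it, and a motif further out would not be seen. Peaks at these genes were not looked up, since no mm9 annotation was used here.

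Ranked by score per base, which lessens the part of width, the main NELF-A peaks of Btg2, Dusp1 and Ier2 were at 0.58%, 0.69% and 0.90% of the list. Those peaks were 1000 to 1750 bp wide. The main NELF-A peaks of Klf6, Nfkbia, Egr1 and Zfp36, of 2500 to 3000 bp, were at 2.24%, 6.74%, 8.73% and 7.54%, and that of Myc, of 1000 bp, was at 10.9%. At Zfp36 the peak nearly level with the main one (scores of 150 and 153), of 2000 bp, stood higher by this measure, at 1.58%.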
